A study of Mus musculus with 9 samples.

Results

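The genes of MHC class I peptide loading and of the immunoproteasome were compared between splenic lymphomas and healthy spleens of the mouse. The 9 genes were taken by name, with earlier results of these data known: B2m, Tap1, Tap2, Tapbp, Psmb8, Psmb9, Psmb10, Nlrc5 and Erap1. All 9 were on the array, by 16 of the 45037 probe sets tested, and every probe set whose platform gene symbol was exactly one of these names was used. Total RNA of frozen spleen tissue had been labelled with biotin and hybridised to 1-colour Affymetrix mouse arrays, 1 array per sample. There were 5 splenic lymphomas from Sca1-MALT1 transgenic mice (genotype Sca1-MALT1, disease status lymphoma), set against 4 spleens from wild-type mice (healthy controls). The sources used here give neither strain nor age, nor how the transgene was built. By its name it joins Sca1, an antigen of blood stem and progenitor cells whose control regions are used to drive transgenes there, to MALT1, a protease and scaffold protein between antigen receptors and NF-kB. The labels number the samples without saying that they came from separate animals, so each p-value measures the spread between these samples, and the number of arrays limits the precision.

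Nearly all nucleated cells show peptides of their own proteins on MHC class I molecules, where CD8 T cells read them. The proteasome cuts the proteins, the TAP transporter carries the peptides into the endoplasmic reticulum, an aminopeptidase trims them there, and tapasin helps to place them on a heavy chain paired with beta-2 microglobulin. Interferon-gamma exchanges the catalytic subunits of the proteasome for those of the immunoproteasome, which lymphocytes also carry without it, and loss of this pathway is a known route by which lymphomas hide from T cells. In mouse and human, Tap1, Tap2, Psmb8, Psmb9 and Tapbp lie in the MHC region itself.

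Start regions of 3 of these genes are printed because Psmb8, Psmb9 and Tap1 are neighbours whose levels are set against each other below, and because B2m carries a match to an interferon motif. Windows from 250 bases before to 50 bases after the start site came from RefSeq (build GRCm38.p6), where 7 of the 9 genes matched (all but Tap2 and Nlrc5). Both strands were searched for an interferon response element (GAAA, any 2 bases, GAAA), TTCNNNGAA (an interferon-gamma activated site, which reads the same on both strands), TGACGT (a cAMP response element) and CCAAT, and in the member windows 0 matches of different motifs overlapped. In the B2m window (chr2:122147437-122147736, plus strand) capitals mark the interferon response element, in the Tap1 window (chr17:34187306-34187605, plus strand) CCAAT, and in the Psmb8 window (chr17:34197945-34198244, plus strand) TTCNNNGAA.
B2m: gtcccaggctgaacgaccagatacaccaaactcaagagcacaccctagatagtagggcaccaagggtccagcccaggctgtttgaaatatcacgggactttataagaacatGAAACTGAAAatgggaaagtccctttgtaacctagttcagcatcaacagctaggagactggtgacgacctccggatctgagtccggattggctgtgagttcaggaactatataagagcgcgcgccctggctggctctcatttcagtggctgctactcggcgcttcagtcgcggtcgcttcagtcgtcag
Tap1: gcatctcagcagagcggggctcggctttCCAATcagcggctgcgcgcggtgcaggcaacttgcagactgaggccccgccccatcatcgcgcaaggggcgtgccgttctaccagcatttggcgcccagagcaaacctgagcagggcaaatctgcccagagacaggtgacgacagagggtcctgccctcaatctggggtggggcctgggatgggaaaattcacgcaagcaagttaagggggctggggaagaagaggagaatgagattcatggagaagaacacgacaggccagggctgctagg
Psmb8: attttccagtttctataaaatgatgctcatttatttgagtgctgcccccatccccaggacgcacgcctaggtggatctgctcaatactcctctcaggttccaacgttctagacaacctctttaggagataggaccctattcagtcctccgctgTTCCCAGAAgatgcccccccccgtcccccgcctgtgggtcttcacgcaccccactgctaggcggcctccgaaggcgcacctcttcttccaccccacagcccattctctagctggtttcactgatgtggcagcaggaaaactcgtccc
The interferon response element stood in the windows of B2m and Erap1, and in 3.44% of the 32851 windows of all genes. TTCNNNGAA stood in that of Psmb8 alone among the 7, and in 8.30% of all windows. CCAAT was in 4 of the 7 (B2m, Psmb9, Tap1 and Tapbp), against 37.4% of all, and TGACGT was in 0 of the 7, against 7.51% of all. The Tap1 and Psmb9 windows share 275 bases on opposite strands, with 226 bases between the start sites, so the CCAAT marked for Tap1 is also the one of Psmb9. These matches describe letters and do not show that a factor binds.

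No difference between lymphoma and wild-type spleen was called for any of the 9 genes. Limma called 0 of the 16 member probe sets at a Benjamini-Hochberg adjusted p under 0.05, where it called 0.486% of all probe sets, and the adjusted p-values of the members lay between 0.300 and 0.975. At an unadjusted p under 0.05 there was 1 member probe set (a dim one of Tap1, below), lower in lymphoma, where 13.9% of all probe sets were (8.76% lower and 5.15% higher). The groups overlapped on all 16, so that 0 of 16 were separate, where 6.47% of all probe sets were. With 9 positive and 7 negative differences, the median log2 difference of the members was 0.022, against -0.010 over all probe sets. Taking for each gene the probe set with the highest mean, the 95% intervals of the 9 differences ran at their outer ends from a ratio of 0.715 to a ratio of 1.62. A change in mean of 2-fold or more lies outside each of these 9 intervals, and smaller changes within them could not be told from no change with these arrays. In tissue RNA a smaller number of cells of a type and less RNA per cell cannot be told apart.

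**Figure D1:**
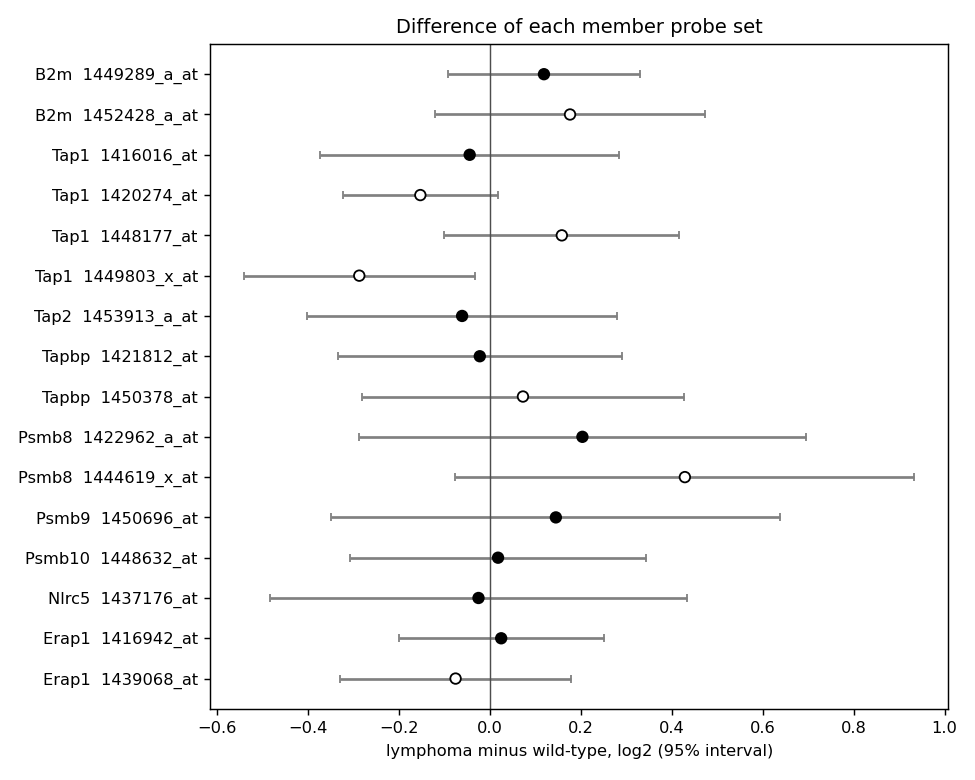
Difference of each of the 16 member probe sets on the log2 scale (x axis, lymphoma minus wild-type, with the 95% interval from limma), by gene and probe set down the page. Filled circles are the probe set with the highest mean of a gene and open circles its others; the filled circles lie between -0.061 and 0.20, and the open circle of the Tap1 probe set 1449803_x_at alone has an interval that leaves out 0.

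B2m encodes beta-2 microglobulin, the small chain that every class I heavy chain needs to reach the cell surface. Its probe set 1449289_a_at read 14.21, 14.66, 14.56, 14.39 and 14.48 on the log2 scale in lymphomas 1 to 5, against 14.37, 14.33, 14.40 and 14.28 in wild-type spleens 1 to 4. Lymphoma 1 was below and lymphomas 2, 3 and 5 were above all wild-type spleens, and the mean difference was 0.12 (95% interval -0.093 to 0.33, limma adjusted p 0.620). The second B2m probe set, 1452428_a_at, had the same order at its ends, with lymphoma 2 highest at 14.24 and lymphoma 1 lowest at 13.57, and a difference of 0.18 (limma adjusted p 0.597).

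The transporter is a pair of half-transporters, TAP1 and TAP2. Tap1 (1416016_at) stood at 11.14, 11.49, 11.44, 11.55 and 11.95 in lymphomas 1 to 5, against 11.39, 11.67, 11.51 and 11.67 in the wild-type spleens. Lymphoma 1 was below and lymphoma 5 above all wild-type spleens, and the lymphoma mean differed from theirs by -0.044 (95% interval -0.37 to 0.28, limma adjusted p 0.926). Tap2 (1453913_a_at) stood at 10.13, 10.99, 10.72, 10.42 and 10.55 in lymphomas 1 to 5, against 10.62, 10.72, 10.58 and 10.57 in the wild-type spleens. Lymphomas 1, 4 and 5 were lower than any wild-type spleen, lymphoma 2 was higher, and lymphoma 3 was level with the highest of them. The Tap2 difference was -0.061 (95% interval -0.40 to 0.28, limma adjusted p 0.897).

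The other probe sets that carry the name Tap1 were dimmer and differed in sign. On 1448177_at, with a mean of 6.30 in lymphoma and 6.14 in wild-type spleen, the difference was 0.16 (limma adjusted p 0.585). Of the dimmest, 1420274_at averaged 3.58 in lymphoma and 3.73 in wild-type spleen, and 1449803_x_at 4.58 and 4.87, both below 5.35, the 25th percentile of all values on these arrays. On the last the difference was -0.29 (95% interval -0.54 to -0.033), with a limma unadjusted p of 0.0304 and an adjusted p of 0.300. Its suffix marks a probe set that may match several transcripts.

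Tapbp encodes tapasin, which holds an empty heavy chain beside the transporter. On 1421812_at it read 12.18, 12.84, 12.63, 12.57 and 12.92 in lymphomas 1 to 5, against 12.60, 12.69, 12.59 and 12.72 in the wild-type spleens. Lymphoma 1 was well below every other array, lymphomas 2 and 5 were above all wild-type spleens, and the means differed by -0.022 (95% interval -0.33 to 0.29, limma adjusted p 0.967). The dimmer probe set 1450378_at differed by 0.073 (limma adjusted p 0.879). Erap1, the aminopeptidase that trims peptides in the endoplasmic reticulum, had 9.02, 9.34, 9.40, 9.28 and 9.42 on 1416942_at in lymphomas 1 to 5, against 9.35, 9.32, 9.33 and 9.08 in the wild-type spleens. Here lymphoma 1 and wild-type spleen 4 stood below the other 7 arrays, and the difference was 0.025 (95% interval -0.20 to 0.25, limma adjusted p 0.940). Its other probe set, 1439068_at, differed by -0.075 (limma adjusted p 0.818).

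Psmb8, Psmb9 and Psmb10 encode the catalytic subunits of the immunoproteasome, and Psmb8 and Psmb9 had the widest SDs among the lymphomas (0.48 and 0.49, n = 5). Psmb8, which encodes the subunit LMP7, stood at 11.80, 13.07, 12.59, 12.12 and 12.48 on 1422962_a_at in lymphomas 1 to 5, against 12.36, 12.24, 12.08 and 12.15 in the wild-type spleens. Lymphomas 2, 3 and 5 were above all wild-type spleens and lymphoma 1 below them, so that a difference of 0.20 came with an interval of -0.29 to 0.69 (limma adjusted p 0.730). Psmb9, which encodes LMP2, had 11.80, 13.02, 12.41, 11.88 and 12.43 on 1450696_at in lymphomas 1 to 5, against 12.20, 12.12, 12.08 and 12.24 in the wild-type spleens. All 5 lymphomas fell outside the wild-type range, lymphomas 2, 3 and 5 above and 1 and 4 below it, and the mean difference was 0.15 (95% interval -0.35 to 0.64, limma adjusted p 0.819).

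Psmb10, which encodes the third such subunit, MECL-1, showed the smallest difference of the 3. It had 11.17, 11.73, 11.35, 11.17 and 11.78 on 1448632_at in lymphomas 1 to 5, against 11.45, 11.45, 11.29 and 11.50 in the wild-type spleens. Lymphomas 1 and 4 were below and 2 and 5 above the wild-type range, with a difference of 0.018 (95% interval -0.31 to 0.34, limma adjusted p 0.974). A second Psmb8 probe set, 1444619_x_at, had the widest difference of the 16, at 0.43, with 7.997, 9.17, 8.32, 8.10 and 8.69 in lymphomas 1 to 5 against 8.182, 7.91, 8.197 and 7.82 in the wild-type spleens (95% interval -0.076 to 0.93, limma adjusted p 0.437). Lymphoma 2 was its highest array too, but its lowest was wild-type spleen 4.

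Nlrc5 encodes the transactivator that drives class I genes together with B2m, Tap1 and Psmb9. On 1437176_at it read 10.29, 11.19, 11.14, 10.40 and 10.86 in lymphomas 1 to 5, against 10.54, 10.71, 11.03 and 10.92 in the wild-type spleens. Lymphomas 1 and 4 were lower and lymphomas 2 and 3 higher than all wild-type spleens, and the difference was -0.025 (95% interval -0.48 to 0.43, limma adjusted p 0.975). Nlrc5 was also the gene of the 9 with the widest wild-type spread, at an SD of 0.22 (n = 4) beside 0.42 (n = 5) in lymphoma.

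**Figure D2:**
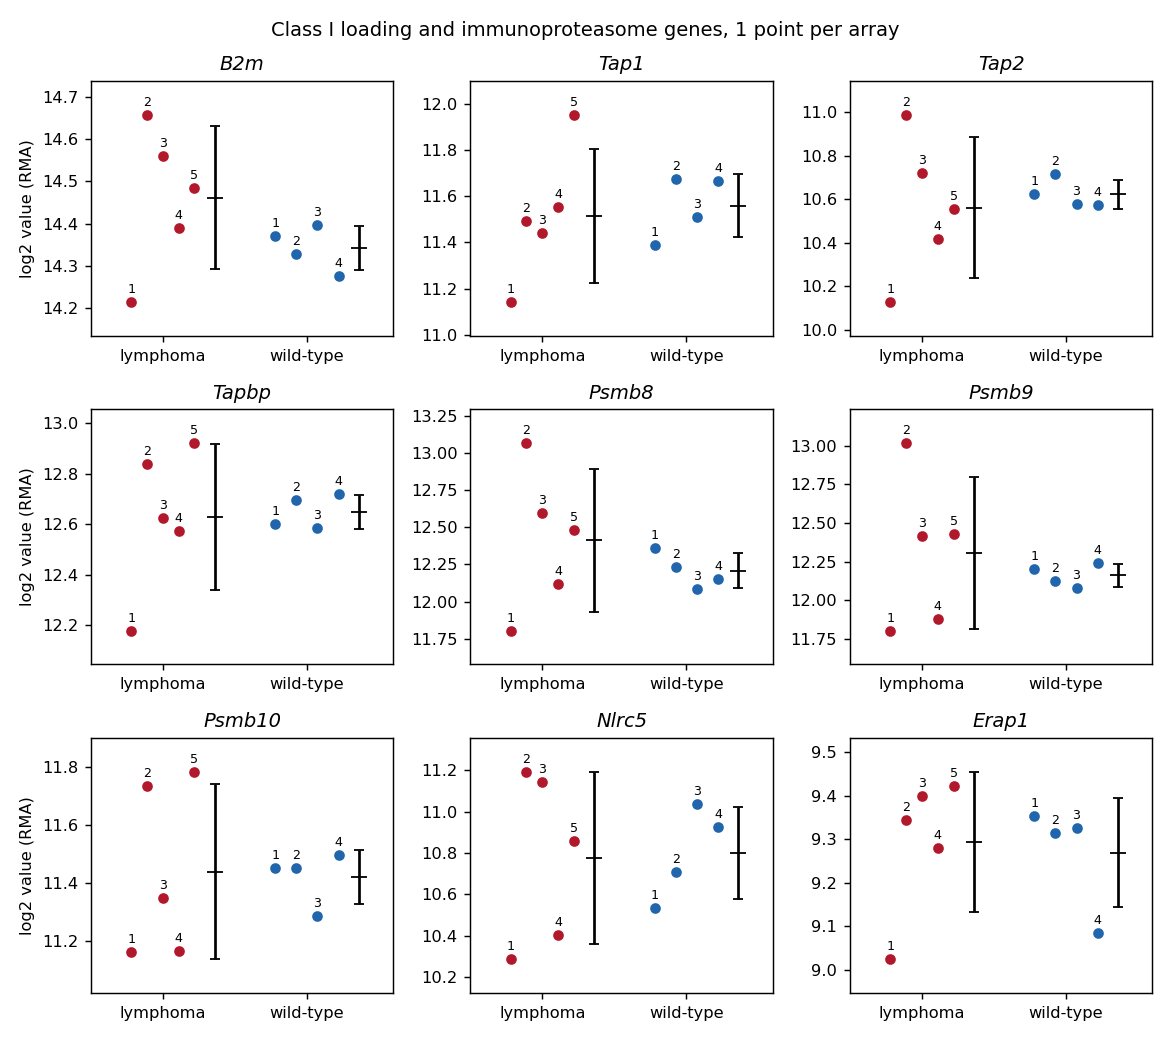
Log2 RMA value (y axis) of the probe set that stands for each of the 9 genes, with 1 numbered point per array in the 5 lymphomas (red) and the 4 wild-type spleens (blue); the bars give mean and SD, and each y axis has its own range. Lymphoma 1 is the lowest point of every panel, and the highest is lymphoma 2 in 5 panels and lymphoma 5 in 4.

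The lymphomas differed more from each other than from the wild-type spleens. Lymphoma 1 was the lowest of all 9 arrays for 9 of the 9 genes, where it was lowest for 21.4% of the 18193 genes measured. By probe set it was lowest on 11 of the 16, with wild-type spleen 4 lowest on 2 and lymphomas 2, 3 and 5 on 1 each, where lymphoma 1 was lowest on 21.6% of all probe sets. The highest array was lymphoma 2 for 5 genes (B2m, Tap2, Psmb8, Psmb9 and Nlrc5) and lymphoma 5 for 4 (Tap1, Tapbp, Psmb10 and Erap1), where these arrays were highest for 14.7% and 12.5% of all genes. The SD among lymphomas was above that among wild-type spleens for 9 of 9 genes and for 14 of the 16 probe sets, and over the genes the median ratio of the 2 SDs was 3.24. Over all genes the share was 78.9% and the median ratio 1.89. Without lymphoma 1 the count was 8 of 9 and the median ratio 2.48, against 1.65 over all genes. Psmb9 had the largest ratio, 6.55, from an SD of 0.49 (n = 5) in lymphoma and 0.075 (n = 4) in wild-type spleen, and Erap1 the smallest, 1.29.

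With each gene centred on its mean over the arrays, the mean of the 9 genes was -0.39, 0.34, 0.11, -0.16 and 0.18 log2 units in lymphomas 1 to 5, against -0.039, 0.0016, -0.040 and -0.011 in the wild-type spleens. All wild-type spleens thus lay within 0.042 of each other, and the lymphomas spanned 0.73, on both sides of them. Marker lists of other cells also varied between the lymphomas. Lymphoma 1 had the lowest level of the B-cell list of all 9 arrays, at -1.05 against -0.19 to 0.045 in the other lymphomas and 0.29 to 0.41 in wild-type spleens, and 9 of the 9 measured genes of that list had negative differences. It also had the highest level of the neutrophil list, at 4.41, against -1.23 to 1.03 in the other lymphomas and -1.58 to -1.0 in wild-type spleens. On the erythroid list lymphomas 1 to 5 stood at 2.84, 2.62, 0.22, -1.89 and -0.47, against -1.25 to 0.35 in wild-type spleens, and on the T-cell list at -1.04, -0.97, 0.42, 0.050 and 0.20, against 0.27 to 0.45. The level of the 18S control probe sets was highest in lymphoma 2, at 13.37, against 12.18 to 12.86 in the other lymphomas and 12.15 to 12.37 in wild-type spleens. The part of the B-cell, neutrophil, erythroid, T-cell and 18S levels in the members' order was not tested.

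**Figure D3:**
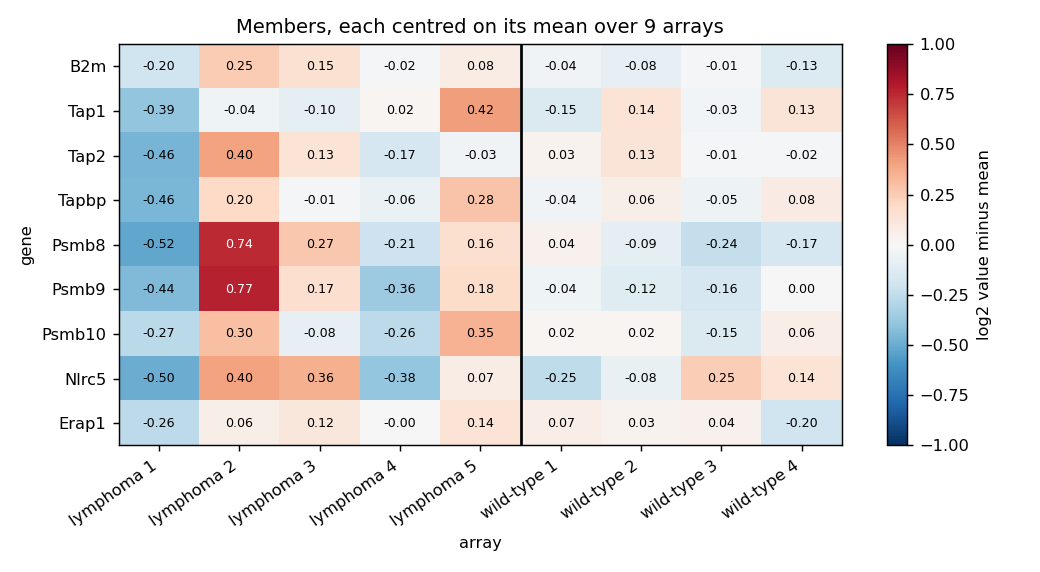
Each row is a member gene and each column an array, lymphomas 1 to 5 left of the line and wild-type spleens 1 to 4 right of it; colour and number give the log2 value minus the gene's mean over the 9 arrays. Lymphoma 1 is negative in every row, lymphoma 2 reaches 0.74 for Psmb8 and 0.77 for Psmb9, and the means of the wild-type columns lie between -0.040 and 0.0016.

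Members were then set against each other over the 9 arrays, in 36 pairs, with the groups pooled. The permutation treats all 9 arrays as exchangeable, although the lymphomas spread more than the wild-type spleens. Its p-values therefore describe the pooled arrays and do not test a relation within either group. All 36 Pearson correlations were positive, with a median of 0.68. After Benjamini-Hochberg adjustment over the 36 pairs, the exact permutation p of Pearson's r was under 0.05 for 10 pairs and that of Spearman's rho for 4. The closest pair was Psmb8 and Psmb9 (r = 0.960, exact permutation p 0.00013, adjusted 0.00476; rho = 0.917, exact p 0.00131, adjusted 0.0236). Without the arrays farthest from the median of Psmb8, lymphomas 1 and 2, r was 0.834. Tapbp and Psmb10 followed each other in rank more closely than any other pair (rho = 0.971, exact permutation p 8.8e-05, adjusted 0.00317; r = 0.851, exact p 0.00063, adjusted 0.00761, or 0.917 without lymphomas 1 and 5). B2m and Psmb8 had r = 0.925 (exact permutation p 0.00044, adjusted 0.00761; rho = 0.733, exact p 0.0311, adjusted 0.0866), which was 0.774 without lymphomas 1 and 2.

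Tap1 followed other members less closely, a difference that was not tested. With Psmb9, its neighbour across the shared start region printed above, r was 0.292 (exact permutation p 0.431, adjusted 0.456; rho = 0.267, exact p 0.493, adjusted 0.573). Lymphoma 2 had the highest Psmb9 (13.02) at a Tap1 of 11.49, and r without it alone was not computed. Without lymphomas 1 and 5 r was -0.262. With its partner Tap2 r was 0.348 (exact permutation p 0.353, adjusted 0.392; rho = -0.067, exact p 0.880, adjusted 0.880), and -0.175 without the same arrays. The closest companion of Tap1 was Tapbp (r = 0.844, exact permutation p 0.0108, adjusted 0.0391; rho = 0.600, exact p 0.0968, adjusted 0.183), a relation that rests on lymphomas 1 and 5, since r was 0.280 without them. Nlrc5 went with Tap2 (r = 0.787, exact permutation p 0.00614, adjusted 0.0289; rho = 0.750, exact p 0.0255, adjusted 0.0866) and Psmb9 (r = 0.777, exact p 0.00794, adjusted 0.0318; rho the same), at 0.512 without lymphomas 1 and 2 for Tap2 and 0.639 for Psmb9. Over the 36 pairs the median r without the farthest arrays was 0.33, with 28 positive. In the 55 pairs of the other subunits of the proteasome core the median r over all arrays was 0.61.

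**Figure D4:**
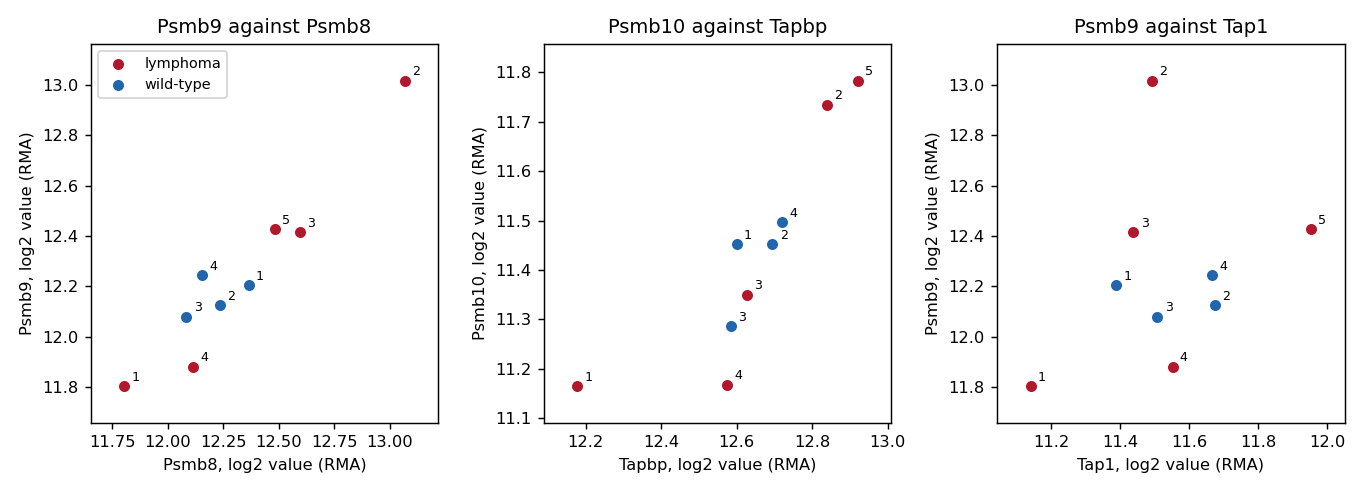
Log2 RMA values of Psmb9 against Psmb8 (left), Psmb10 against Tapbp (middle) and Psmb9 against Tap1 (right), 1 numbered point per array, lymphomas in red and wild-type spleens in blue. The first pair lines up from lymphoma 1 to lymphoma 2 (r = 0.960), and the second likewise up to lymphoma 5 (r = 0.851). In the third (r = 0.292) lymphoma 2 is the highest point, with lymphoma 1 at the lower left and lymphoma 5 farthest right.

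Outside the members, the 5 genes whose levels were most like the mean of the 9 over the 9 arrays, of 18184 compared, were Ndufs4 (Pearson r = 0.986), a subunit of respiratory complex I, Clp1 (0.981), an RNA kinase of transcript processing, Stambp (0.963), a deubiquitinase, Tbrg1 (0.960) and Nfkbie (0.958), an inhibitor of NF-kB. They were picked for this likeness, so the values describe it and carry no test. None of the 5 was called by limma (0 of 5), with log2 differences from -0.0080 to 0.016 and unadjusted p-values from 0.938 to 0.985.

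Each immunoproteasome subunit takes the place of one constitutive subunit, and none of the 3 constitutive genes was called by limma (0 of 3, where 0.605% of genes were called). The level of Psmb5 differed by -0.026, that of Psmb6 by 0.13 and that of Psmb7 by 0.31 (limma adjusted p 0.929, 0.572 and 0.642). The log2 difference within an array was used to ask for unequal change. Psmb8 minus Psmb5 was -0.083, 1.01, 0.82, 0.47 and 0.53 in lymphomas 1 to 5, against 0.49, 0.28, 0.22 and 0.29 in wild-type spleens, so 3 lymphomas lay above the wild-type range, 1 below it and 1 within it. The group means differed by 0.23 (two-sided exact permutation p 0.333, adjusted over the 3 pairs 0.500). This was 0.39 without lymphoma 1 (exact permutation p 0.0571) and 0.11 without lymphoma 2 (exact permutation p 0.657). Psmb9 minus Psmb6 differed by 0.012 (exact permutation p 0.984, adjusted 0.984) and Psmb10 minus Psmb7 by -0.30 (exact permutation p 0.262, adjusted 0.500), the last -0.41 without lymphoma 4 and -0.10 without wild-type spleen 2. The smallest p this design allows is 0.00794.

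Few genes of the rest of the proteasome differed even without adjustment. Of 42 measured genes of its core, activators, assembly factors and regulator, the 3 constitutive ones included, limma called 0 and 1 was at an unadjusted p under 0.05, where 14.9% of genes were. Their median log2 difference was 0.060, against 0.0012 over all genes, and they ranged from -0.12 to 0.32. Psmc4, an ATPase of the regulator, was at the upper end (0.32, limma unadjusted p 0.0268, adjusted p 0.287), Psmd14, a deubiquitinase of the regulator, stood at 0.22 and Psmg2, an assembly chaperone, at -0.12. Another assembly chaperone, Psmg4, stood at 0.23, and the core subunits Psma7 and Psmb1 at 0.15 and 0.13. Psme1, a subunit of the interferon-induced activator PA28, differed by -0.080 (limma adjusted p 0.879), and its partner Psme2 had no probe set of its own and was not analysed here. Of 6 measured cytosolic peptidases limma called 0. The leucine aminopeptidase gene Lap3 had 9.28, 9.83, 9.17, 8.91 and 9.19 in lymphomas 1 to 5, against 8.88, 8.74, 8.65 and 8.70 in wild-type spleens, with no overlap between the groups (7.33% of genes had none), a difference of 0.53 and a limma adjusted p of 0.189. Thop1, an oligopeptidase, stood at 0.25 (limma adjusted p 0.374). The list had 3 positive and 3 negative differences, the lowest being that of Tpp2, tripeptidyl peptidase II (-0.23, limma unadjusted p 0.0311, adjusted p 0.303). Among 9 measured partners of peptide loading in the endoplasmic reticulum limma again called 0, with the lectin chaperone Calr at 0.42 (limma adjusted p 0.498) and the disulfide isomerase Pdia3 at 0.29 (0.525).

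Some probe sets of the class I heavy chains set lymphomas 2 and 3 apart from all other arrays. Of 10 measured genes limma called 0, where it called 0.605% of all genes. At an unadjusted p under 0.05 there was 1 higher, where 6.79% of genes were. This was H2-Q10, a class I gene known for its expression in mouse liver (log2 difference 1.25, limma adjusted p 0.281). Its values were 9.24, 6.32, 7.44, 7.20 and 7.31 in lymphomas 1 to 5, against 6.19, 6.51, 6.16 and 6.15 in wild-type spleens, so lymphoma 2 lay among the wild-type spleens. Without lymphomas 1 and 2 H2-Q10 was called (1.06, limma adjusted p 0.00661). The classical chain H2-D1, on the probe set with its highest mean (1451784_x_at), read 13.41, 10.90, 10.59, 13.60 and 14.18 in lymphomas 1 to 5, against 13.52, 13.64, 13.80 and 13.74 in wild-type spleens. Lymphomas 2 and 3 thus lay at least 2.51 log2 units below all other arrays. On 1451683_x_at the same lymphomas stood at 6.52 and 6.38, a gap of 4.81 to the next array.

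For H2-K1, the other classical chain on these arrays, 1425336_x_at read 13.91, 13.11, 12.72, 14.16 and 14.52 in lymphomas 1 to 5, against 14.03, 14.07, 14.18 and 14.24 in wild-type spleens. Of the 13 probe sets of H2-D1 (9) and H2-K1 (4), lymphomas 2 and 3 were both below all other arrays on 5 and both above them on 4, all 4 filed under H2-D1. The gap to the next array was 0.79 to 4.81 log2 units on the 5, and only 0.12 to 0.57 on the 4. On 1 of these 4, 1450170_x_at, lymphoma 5 stood at 10.48, against 12.98 to 13.90 in the other lymphomas and 13.14 to 13.32 in wild-type spleens. Heavy chain genes are similar to each other, and 11 of the 13 probe sets carry the suffix of possible matches to several transcripts, so which gene each reads is uncertain. The strain is not given, and on these probe sets a different amount of RNA and a different match of the probes cannot be told apart. Limma called none of them (0 of 13; the adjusted p was 0.520 for H2-D1 and 0.588 for H2-K1 on the probe sets that stand for the genes). B2m was highest of all arrays in lymphomas 2 and 3. Without these lymphomas limma called 0 of the 16 member probe sets, an alternative chosen after seeing the data.

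**Figure D5:**
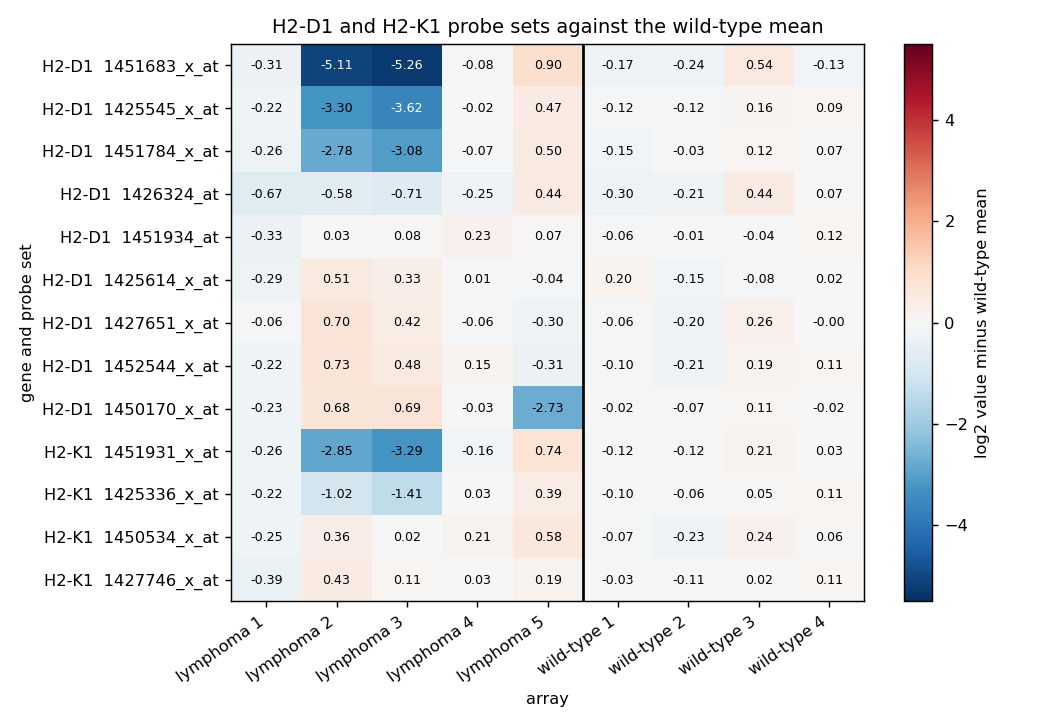
Each row is a probe set of H2-D1 or H2-K1 and each column an array, lymphomas 1 to 5 left of the line and wild-type spleens 1 to 4 right of it; colour and number give the log2 value minus the mean of the wild-type spleens. Lymphomas 2 and 3 are below all other arrays on 5 probe sets, by 0.79 to 4.81. They are above them on 4 others, by 0.12 to 0.57, and lymphoma 5 is low on 1450170_x_at.

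Interferon-gamma is the main inducer of these genes. Its gene Ifng had 7.41, 7.90, 7.55, 6.97 and 8.45 in lymphomas 1 to 5, against 7.04, 6.97, 6.68 and 6.42 in wild-type spleens. Lymphoma 4 lay within the wild-type range and the other 4 above it, with a difference of 0.88 (95% interval 0.28 to 1.48, limma unadjusted p 0.00849, adjusted p 0.192). Of 19 measured genes of its signalling and of class I regulation limma called 0, with 1 higher (Ifng) and 5 lower at an unadjusted p under 0.05, where 6.79% and 8.09% of genes were. Rfx5, a subunit of the RFX complex that NLRC5 needs at class I promoters, had the largest negative difference (-0.60, limma adjusted p 0.123). It read 10.75, 10.86, 11.46, 11.05 and 10.81 in lymphomas 1 to 5, against 11.66, 11.77, 11.47 and 11.44 in wild-type spleens, and was called without lymphoma 3 (-0.72, limma adjusted p 0.0339) and without lymphomas 2 and 3 (-0.72, 0.0330). Irf1, the interferon-induced factor that acts on Tap1, Psmb9 and B2m, differed by -0.11 (limma adjusted p 0.721).

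Interferon-induced genes outside the class I pathway had a median difference of 0.27, against 0.0012 over all genes. Limma called 0 of 16, where it called 0.605% of all genes. At an unadjusted p under 0.05 there were 4 higher and 0 lower, where 6.79% and 8.09% of genes were. Iigp1, a GTPase of defence within cells, had 10.78, 10.85, 10.36, 9.57 and 10.75 in lymphomas 1 to 5, against 9.43, 9.32, 9.32 and 9.34 in wild-type spleens. The groups did not overlap (7.33% of genes had no overlap). The difference was 1.11 and the limma adjusted p 0.0875, or 0.0105 without lymphoma 4 and 0.0327 with array weights. Rsad2, an antiviral enzyme, spread most, with 13.54, 12.48, 11.67, 7.82 and 9.52 in lymphomas 1 to 5 against 9.90, 9.00, 8.87 and 8.92 in wild-type spleens (difference 1.83, limma adjusted p 0.462). Of the 16 genes 11 had positive and 5 negative differences. The lowest was that of Bst2, which encodes tetherin, a protein that holds virus at the cell surface (-0.44, limma adjusted p 0.524), and it was called lower without lymphomas 2 and 3 (-0.85, limma adjusted p 0.0491). The level of this list was 0.23, 0.63, 0.28, -0.46 and 0.10 in lymphomas 1 to 5, against -0.24 to -0.16 in wild-type spleens. On the mean of the 9 class I loading and immunoproteasome genes these lymphomas stood at -0.39, 0.34, 0.11, -0.16 and 0.18. Lymphoma 2 was highest on both, and the lowest was lymphoma 4 on the list and lymphoma 1 on the 9 genes. Lymphoma 1 had the highest Rsad2 but not the highest level of the list. The relation between the 2 levels was not tested.

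The tissue markers stood as follows in the same fit. B-cell genes were present on all arrays, with Ms4a1 (CD20) between 13.02 and 14.17 in lymphomas, against 13.74 to 13.90 in wild-type spleens. Over all genes limma called 0.605%. It called 5 of 10 macrophage genes, all higher in lymphoma (C1qb by 2.40, C1qc by 2.34, C1qa by 1.93, Cd68 by 0.996 and Vcam1 by 0.77 on the log2 scale), and 1 of 9 NK and cytotoxic genes, Gzmk (3.0), with adjusted p-values from 0.00993 to 0.0235. None of these 6 genes was called without wild-type spleen 2, without wild-type spleen 3, with the 18S level as a covariate or with unequal variances. Cd68 and Vcam1 were also not called without wild-type spleen 1, without wild-type spleen 4, without lymphoma 5 or with the replicate block, and C1qb not without wild-type spleen 4. The level of the macrophage list was 0.23 to 0.97 in lymphomas, against -0.85 to -0.56 in wild-type spleens. Limma called 0 of 9 B-cell, 0 of 9 T-cell, 0 of 11 erythroid, 0 of 10 neutrophil, 0 of 7 dendritic cell and 0 of 9 endothelial and stromal genes. At the share over all genes, 0.605%, lists this short would mostly hold no called gene. The largest differences in these lists that were not called were -1.77 for Fcer2a and -1.25 for the complement receptor Cr2, both of the B-cell list, and -1.69 and -1.0 for the CD8 chains Cd8b1 and Cd8a. They were 3.41 and 3.15 for the neutrophil genes S100a9 and Lcn2, and 2.36 and 2.33 for the erythroid genes Rhag and Hbb-b2. They were -0.99 for Ccr9 and -0.58 for Siglech among dendritic cell genes, and 0.86 for Pdgfrb and 0.84 for Stab2 in stroma and endothelium (limma adjusted p from 0.104 to 0.485 for these genes). Under single alternatives 5 of them were called. Without lymphoma 1 this held for Cr2 (-0.94, limma adjusted p 0.0135), without lymphoma 3 for Cd8b1 (-2.11, 0.0211) and without lymphoma 2 for Pdgfrb (1.08, 0.0245). Without lymphomas 1 and 2 it held for Fcer2a (-0.87, 0.0202), Cr2 and Pdgfrb, without lymphomas 2 and 3 for Ccr9 (-1.41, 0.0386), Cd8b1 and Pdgfrb, and with array weights for Cr2 and Pdgfrb.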

How the data were processed

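The deposited log2 values of 45101 probe sets on 9 arrays were made with RMA, as the submitters' processing notes name it without version or settings (per the labels). RMA corrects background, normalizes between arrays and summarises probes, and it compresses differences near background. Values were used as deposited, and 64 control probe sets were left out. Gene symbols came from the platform annotation: 1 symbol stood beside 34945 of the tested probe sets, more than 1 beside 932 (left unnamed) and no symbol beside 9160. Lymphoma and wild-type arrays were compared in 1 fit of 45037 probe sets with limma 3.58.1 in R 4.3.3 (lmFit, eBayes, two-sided, Benjamini-Hochberg over all probe sets, no covariate or filter). For 1 value per gene, the probe set with the highest mean stood for each of 18193 genes. On simulated arrays of 45037 probe sets this fit recovered 76% of 100 probe sets shifted by 1 log2 unit and 97% of 100 shifted by 2 units, and 12 of the others were called. On the measured arrays the SD among lymphomas was above that among wild-type spleens for 75.2% of all probe sets. The share of shifted probe sets that this fit recovers on the measured arrays was not tested. Exact permutation tests and correlations used scipy 1.17.1 in Python 3.11.15.

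The members, lists and tests were chosen with earlier results of these data known. All 9 members and their probe sets are given. From each related list (102 of 118 genes measured) and marker list, the rule names up to 4 called genes, otherwise the 2 of largest difference, and it adds 10 genes (those lacking a probe set with 1 symbol, such as Psme2, were not analysed here). Marker lists: B cells, T cells, NK and cytotoxic cells, macrophages, erythroid cells, neutrophils, dendritic cells, endothelium and stroma. Vcam1, Ms4a1, Tpp2, Bst2 and single H2-D1 and H2-K1 probe sets were picked with their values in view. The fit was repeated with a dim-probe filter, other normalizations, priors and variances, array weights, a replicate block, covariates, and with arrays or probe sets left out. Leaving out lymphomas 2 and 3 was chosen after seeing the data.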

Additional observations from a re-analysis of the deposited data

Results flagged for a closer look

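For Erap1 on 1416942_at, wild-type spleen 4 stood apart in its group, at 9.08, where the rest of that group had 9.32 to 9.35, and its gap to the nearest was 0.859 of the group's range. The lymphomas ran from 9.02 to 9.42. Of 38 groups examined for such a sample, 1 was marked, and chance marks about 1 in 20. Without this spleen the Erap1 difference was -0.037.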

How the results depend on the processing

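No member probe set was called under any of the 23 alternatives, with a lowest adjusted p of 0.190. All 16 were tested under each, except 14 with the filter on dim values, 10 without probe sets whose suffix marks several possible transcripts and 9 with 1 probe set per gene. Those 10 held no probe set of B2m, Tap2 or Psmb8. The test was limma's apart from the one with unequal variances, and the median member difference ran from -0.099 to 0.095. The count over all probe sets, 219 here, was 821 with array weights, 935 without lymphomas 1 and 2, 813 without lymphomas 2 and 3, 130 with the erythroid score as a covariate and 130 with 1 probe set per gene. It was 0 with unequal variances (5463 at an unadjusted p under 0.05) and 0 with the 18S level as a covariate (3782 at an unadjusted p under 0.05). Leaving out 1 array gave 0 to 530 calls: 530 without lymphoma 2, 48 without lymphoma 5, and 18, 0, 0 and 14 without wild-type spleens 1 to 4. The cause was not tested.

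Of 353 member values under alternatives, 314 kept their sign and side of the threshold and 39, over 11 probe sets, changed sign without being called. With the 18S covariate the difference was -0.14 for Tapbp (1450378_at), -0.085 and -0.020 for Psmb8, -0.19 for Psmb9 and -0.21 for Psmb10. Without lymphomas 2 and 3 it was -0.0066 for B2m (1452428_a_at), -0.093 for Tapbp (1450378_at), -0.075 for Psmb8 (1422962_a_at), -0.13 for Psmb9, -0.050 for Psmb10 and -0.027 for Erap1 (1416942_at). Without lymphomas 1 and 2 it was 0.088 for Tap1 (1416016_at), 0.057 for Tapbp (1421812_at), 0.00073 for Nlrc5 and -0.052 for Psmb9 minus Psmb6. Array weights gave 0.038 for Tap1, 0.026 for Tapbp and 0.088 for Nlrc5, and the erythroid covariate 0.092 for Tap1, 0.045 for Tapbp and -0.012 for Psmb10. Quantile normalization gave 0.0082 for Nlrc5 and -0.0032 for Psmb9 minus Psmb6. With 1 array left out, Tap1 ran from -0.154 to 0.049, Tap2 from -0.167 to 0.048, Tapbp from -0.095 to 0.090 and from -0.039 to 0.192, Psmb9 from -0.031 to 0.271, Psmb10 from -0.068 to 0.087, Nlrc5 from -0.128 to 0.097, Erap1 from -0.037 to 0.093 and Psmb9 minus Psmb6 from -0.136 to 0.111. Others kept their sign: B2m ran from 0.070 to 0.181 and from 0.085 to 0.252 and Psmb8 from 0.040 to 0.356 and from 0.251 to 0.544, each lowest without lymphoma 2 and highest without lymphoma 1.

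Samples of the 2 groups share replicate numbers, and the labels state no pairing. The deviations of same-numbered samples from their group means correlated at 0.099, -0.190, 0.148 and -0.038, and 2 of 4 lymphomas correlated best with their own number. So few samples cannot exclude a pairing or a shared batch, and the main fit used none. With the replicate block, to which lymphoma 5 adds nothing, 5 probe sets were called in all, and the difference was -0.068 for Psmb10 and -0.0072 for Erap1 (1416942_at). Signal over background limits the dim Tap1 probe sets.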

Other observations

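Outside the class I heavy chains, few probe sets set lymphomas 2 and 3 apart by as much. Over all 45037 probe sets, 7 had both lymphomas at least 2 log2 units below every other array: 3 of H2-D1, 1 of H2-K1, 1 of the class II chain H2-Aa, 1 of Pclo and 1 without a single symbol. The reverse, both at least 2 units above, held for 1, Slc15a2. At a gap of 1 unit the counts were 14 and 2. These probe sets were picked by this gap, so the values carry no test.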
